A study of Mus musculus with 6 samples.

Results

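The nuclear genes of oxidative phosphorylation were compared between iKAP mouse tumour cells that carry an IRF2 or a GFP construct. A gene was taken by its name in the platform annotation, where the symbol had to begin with Nduf, with Sdha, Sdhb, Sdhc or Sdhd, with Uqcr, with Cox4 to Cox8, or with Atp5. Of 18193 genes measured by at least 1 probe set with a single gene symbol, 94 matched, on 185 such probe sets, and the probe set with the highest mean log2 intensity over the 6 arrays stood for its gene. The intensity filter of 11.3 left 91 of them in the test, and Ndufb4, Cox6b2 and Cox7b2 lay under it on their single-symbol probe sets. For Ndufb4, a bright probe set that also names the copies Ndufb4b and Ndufb4c, which the rule leaves out, read 1002, 952 and 976 on the GFP control arrays and 1111, 1116 and 1106 on the arrays labelled IRF2. Another shared by the same copies read 824, 799 and 838 against 906, 912 and 910, so that neither overlapped between the groups, and neither was tested. By role, 73 were subunits found in most tissues, 8 were tissue-restricted or alternative isoforms of complex IV, and 13 were factors that build or join the complexes and share the name stem. The names fix no direction of change, since the rule uses no measured difference.

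The study measured total RNA on 6 Affymetrix 3′ expression arrays, 3 labelled IRF2 and 3 labelled GFP control, each numbered 1 to 3. iKAP is a mouse model of colorectal cancer whose engineered alleles, conditional Apc and Trp53 among them, both groups share. Both came from culture number 3346 in DMEM medium with an additive named as free of tetracycline, and each construct was stably expressed from a lentiviral vector. IRF2 belongs to the interferon regulatory factors, which bind DNA and control transcription, and GFP is an inert fluorescent protein that serves as the control insert. How many clones each group holds and the species of the IRF2 insert are not stated by the labels. Separate cultures behind the arrays of a group are named nowhere in the labels. The spread that the p-values rest on is therefore that between arrays and may be technical.

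Oxidative phosphorylation is the inner-membrane machinery by which mitochondria make ATP. Complex I takes electrons from NADH and complex II from succinate, both pass them through ubiquinone to complex III, cytochrome c carries them to complex IV, and complex IV reduces oxygen to water. The proton gradient that complexes I, III and IV build up drives complex V, the ATP synthase. Most subunits are encoded in the nucleus and imported, and a small number come from mitochondrial DNA. Promoters of the nuclear subunits are known for sites of NRF1, GABPA, YY1 and the estrogen-related receptors, which act with the PGC-1 coactivators.

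Array medians lay between 18.2 and 18.7 in intensity, and the 3′ to 5′ ratio of the Actb control probe sets between 0.996 and 1.02. For Tfrc this ratio ranged from 3.61 to 3.78 in the GFP control group and from 3.81 to 4.47 in the other. The Tfrc ranges did not overlap, while those of Gapdh did (0.829 to 0.860 against 0.846 to 0.860). The part of RNA quality in the small differences below was not tested. The Irf2 probe set read 65.4, 60.5 and 62.0 on the GFP control arrays and 37.0, 36.6 and 35.2 on the arrays labelled IRF2. It thus went against the label, with a log2 difference of -0.79 (SE 0.06, limma adjusted p = 1.73e-07). Where in the transcript this probe set lies is not known here, so every direction below is by label. Whether the group labels were exchanged was not tested, and in that case every direction below would turn. Of 10 epithelial and gut markers, 7 passed the filter and Cdx1, Krt20 and Vil1 did not. Their intensities summed to between 14535 and 14686 in the GFP control group and between 16030 and 16165 in the other. Krt8 (log2 0.50) and Krt18 (0.08) were higher and Cdh1 (-0.75), Cdh17 (-0.57) and Epcam (-0.81) lower on the arrays labelled IRF2, all past the threshold of the test. Of 7 immune markers 4 passed, with Ptprc, Itgam and Adgre1 under the filter and sums of 254 to 288 and 281 to 294. Of 8 fibroblast markers 6 passed, with sums of 223 to 228 and 245 to 263 and with Col1a1 and Lum under the filter. Pdgfra (log2 0.70) and Acta2 (0.37) were called higher and Pdgfrb (-0.40) lower, and of the immune markers Cd14 (0.18) was called higher. Of 5 endothelial markers 3 passed, with Pecam1 and Tek under the filter, sums of 92.0 to 103 and 85.4 to 96.5, and Egfl7 (-0.22) called lower. The part of these markers in the results below was not tested. In such bulk RNA, fewer cells of a type and less RNA per cell cannot be told apart.

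The oxidative phosphorylation genes moved little and in both directions. Of the 91 tested, 20 were higher and 16 lower on the arrays labelled IRF2 at a limma adjusted p under 0.05, and 55 did not pass. That is 39.6% called, with 22.0% higher and 17.6% lower. The background over all 12795 genes tested was 36.3% called, with 16.5% higher and 19.8% lower, so the shares lie close to it. The groups did not overlap for 46 of the 91 genes (50.5%), against 46.2% of all genes. Bright probe sets are measured with less spread, so genes at an intensity of at least 960, the lower quartile of the subunits, give a closer background, chosen after the data were seen. Among the 1096 such genes 58.9% were called, 25.5% higher and 33.4% lower, and among the 54 members at that level 14 were higher and 10 lower, which is 44.4%. Whether this share differs from that of the other bright genes was not tested.

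The sizes were small. The median log2 difference was 0.0022 over the 91 genes and -0.00070 over all genes tested, and the median absolute difference was 0.067 against 0.093. In 82 of the 91 (90.1%) the fold was under 1.1, as it was in 65.4% of all genes tested. At the bright level it was in 51 of 54 members (94.4%) and in 73.1% of the 1096 genes. For 82 of the 91 (90.1%) the whole 95% interval of the difference lay within 1.2-fold in either direction, against 62.5% of all genes. At the bright level this held for 53 of 54 members (98.1%) and for 87.8% of the 1096 genes. Of the 55 that did not pass, 51 had an interval inside that bound, so a change above 1.2-fold lies outside the interval for those 51. Over all genes tested this held for 6174 of the 8153 not called. At the bright level it held for all 451 genes not called and for all 30 members not called, so it is not particular to these genes. Among the 91, the intervals that reached past 1.2-fold belonged to Ndufa7, Ndufaf4, Ndufaf7, Sdhaf4, Cox7c, Cox6a2, Cox7a1, Cox8b and Ndufa4l2. Without the intensity trend in limma's variance estimate the calls came to 11 higher and 8 lower, and 29.7% of all genes were called. Of the 36 called genes, 14 kept call and direction under all 16 alternative settings: Ndufa2, Ndufa7, Ndufb7, Ndufs8, Ndufaf4, Ndufaf6, Ndufaf7, Sdhaf2, Sdhaf4, Uqcrc1, Cox4i1, Atp5e, Atp5j2 and Atp5k.

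**Figure D1:**
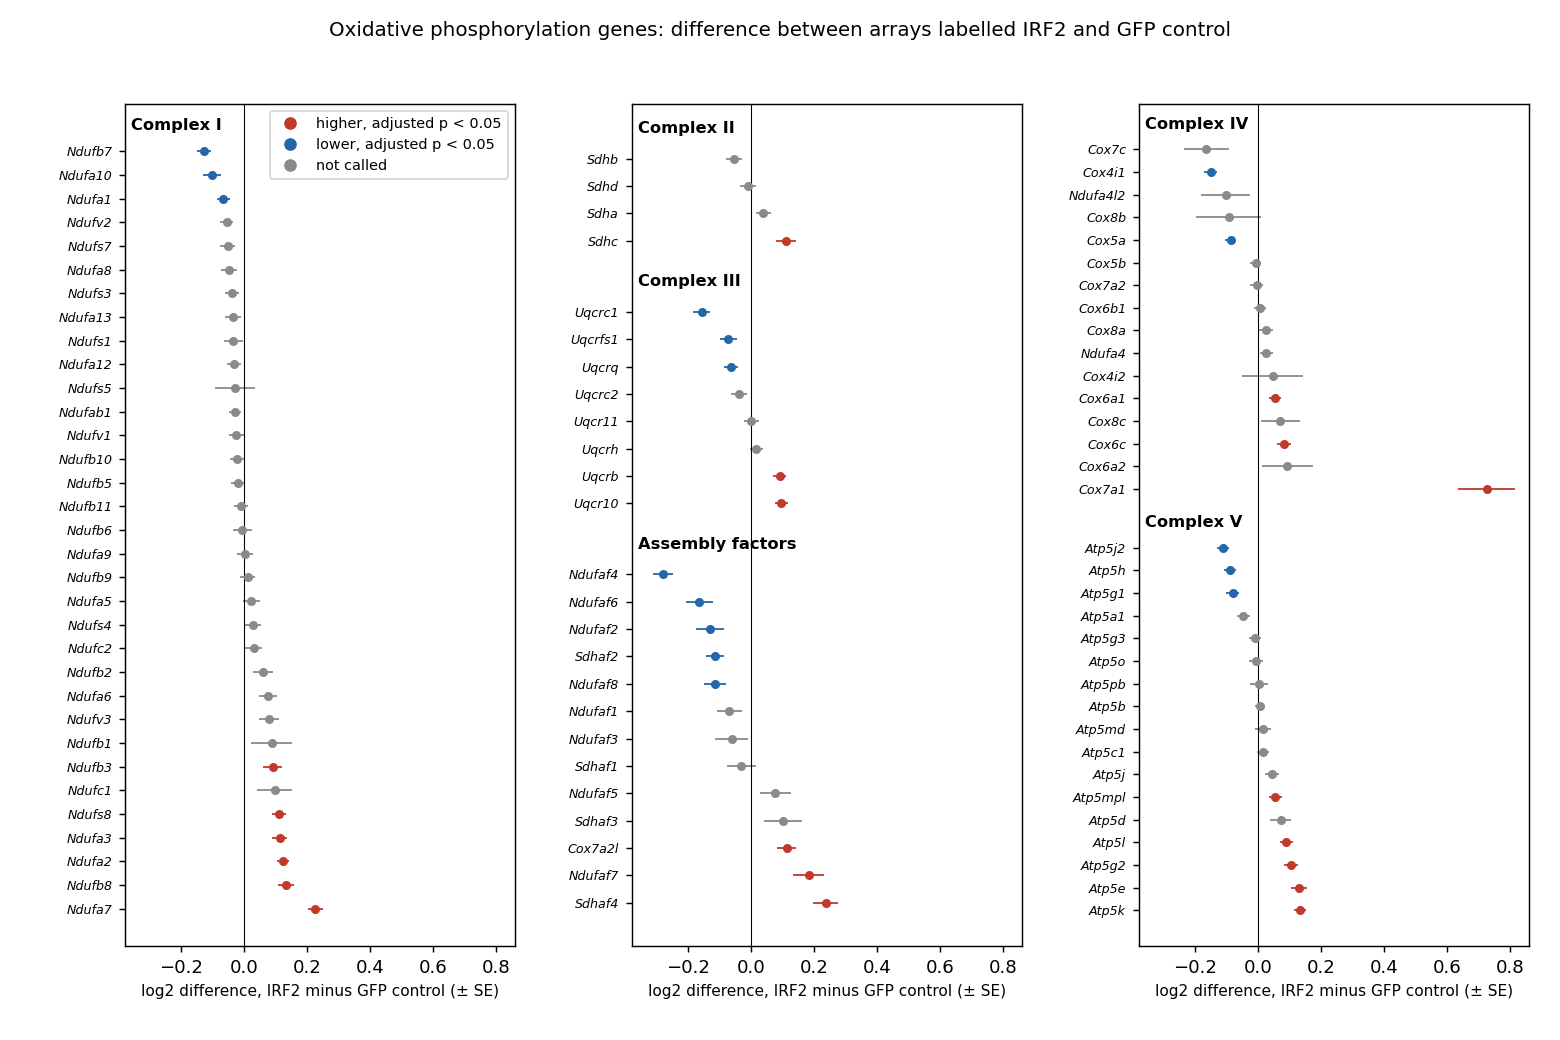
Fitted log2 difference (IRF2 minus GFP control, x axis) of each of the 91 tested genes with its standard error as bars, by complex, with the assembly factors apart; red is higher and blue lower at an adjusted p under 0.05, grey is not called. In every block but complex II, where Sdhc is the 1 called subunit, calls in both directions sit beside genes near 0, and Cox7a1 at 0.73 stands to the right of all others.

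Complex I had 41 genes in the test, with 7 higher and 7 lower and a median of -0.02. That is 34.1% called, beside 36.3% of all genes tested. Without the intensity trend, and likewise without IRF2 replicate 1, the lower count was 4. The core subunits carry the flavin, the iron-sulfur clusters and the quinone site, and 6 nuclear ones were measured. Ndufs8, which binds clusters on the way to the quinone, read 1702, 1637 and 1639 on the GFP control arrays and 1760, 1813 and 1796 on the arrays labelled IRF2. The arrays did not overlap, and Ndufs8 was higher by 0.11 on the log2 scale (SE 0.02, adjusted p = 0.00136). The other 5 did not pass. Ndufv1, the flavin subunit, differed by -0.03 (adjusted p = 0.458) and its partner Ndufv2 by -0.06 (0.0519). Ndufs1, which carries clusters of the electron input arm, differed by -0.03 (0.426), Ndufs3 by -0.04 (0.222) and Ndufs7, beside the quinone site, by -0.05 (0.106).

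Accessory subunits surround this core and are needed for its stability. Of 27 tested, 5 were higher and 3 lower, which is 18.5% and 11.1% beside 16.5% and 19.8% of all genes tested. Ndufa7 read 1919, 1826 and 1887 on the GFP control arrays and 2194, 2238 and 2150 on the arrays labelled IRF2. Its lowest value in the second group exceeded the highest in the first, with a log2 difference of 0.23 (SE 0.02, adjusted p = 2.45e-06), the widest among the accessory subunits of complex I. Ndufa2, a subunit of the electron input arm, read 2054, 2038 and 1988 against 2214, 2181 and 2224, a difference of 0.12 (SE 0.02, adjusted p = 2.29e-04). Ndufb7, of the membrane arm, moved the other way. It read 1208, 1165 and 1174 on the control arrays and 1088, 1082 and 1075 on the others, a difference of -0.13 (SE 0.02, adjusted p = 4.13e-04) with no overlap.

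Ndufb8, also of the membrane arm, was higher by 0.13 (adjusted p = 0.00103) on its bright probe set, with 931, 895 and 930 against 988, 995 and 1038. Its dim probe set gave -0.04, and the mean of both did not pass. The pattern recurred for Ndufa3, where the bright probe set gave 0.11 (adjusted p = 0.00199), a dim one -0.18, and the mean of its probe sets did not pass. Ndufb3 was higher by 0.09 (adjusted p = 0.032), Ndufa1 lower by 0.07 (log2 -0.07, adjusted p = 0.021) and Ndufa10 lower (log2 -0.10, adjusted p = 0.0101). The calls of Ndufb3 and Ndufa1 were each lost when 1 of 4 arrays was left out: GFP replicates 2 and 3 and IRF2 replicates 1 and 2 for Ndufb3, and GFP replicates 1 and 3 and IRF2 replicates 1 and 2 for Ndufa1. Ndufc1 did not pass on its brightest probe set (log2 0.10, SE 0.06, adjusted p = 0.215). Its other probe set read 1055, 1007 and 1060 against 1170, 1174 and 1185, without overlap (log2 0.18, SE 0.03). The mean of the Ndufc1 probe sets was called higher, as was Ndufc1 without IRF2 replicate 3.

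Assembly factors of complex I, which help to build it and are not part of the finished enzyme, had 1 gene higher and 4 lower of 8. That is 62.5% called, beside 36.3% of all genes tested. The background is not matched for level, since these 8 had a median intensity of 163 on the GFP control arrays and all genes measured 39.9. Ndufaf4, a factor of the early quinone module, read 497, 497 and 531 on the GFP control arrays and 411, 426 and 418 on the arrays labelled IRF2. No arrays overlapped, and the difference of -0.28 (SE 0.03, adjusted p = 6.13e-06) was the largest fall of the 91 genes. Ndufaf6 read 187, 178 and 175 against 156, 167 and 158, a difference of -0.17 (SE 0.04, adjusted p = 0.00738). Ndufaf7, a mitochondrial protein methyltransferase, was the 1 that rose. It read 134, 132 and 148 on the control arrays and 156, 161 and 151 on the others, a difference of 0.18 (SE 0.05, adjusted p = 0.00931) with groups that lie close together without overlap. Ndufaf2, of late assembly, was lower (log2 -0.13, adjusted p = 0.029), a call lost without GFP replicate 1 or 2 or IRF2 replicate 1 or 3. Ndufaf8 was lower (log2 -0.11, adjusted p = 0.0183), a call lost without GFP replicate 1, IRF2 replicate 1 or IRF2 replicate 3.

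Complex II, which is also an enzyme of the citric acid cycle, had 2 genes higher and 1 lower of 8. That is 37.5% called, beside 36.3% of all genes tested. All 4 subunits of complex II are nuclear. Sdha, the flavoprotein that oxidises succinate, differed by 0.04 (adjusted p = 0.243), the iron-sulfur subunit Sdhb by -0.06 (0.105) and the membrane anchor Sdhd by -0.01 (0.809). The other anchor, Sdhc, read 311, 321 and 310 on the GFP control arrays and 341, 338 and 338 on the arrays labelled IRF2. These did not overlap, and Sdhc was higher by 0.11 (SE 0.03, adjusted p = 0.0108), though averaging its probe sets took the adjusted p to 0.147. Among the assembly factors, Sdhaf4, which helps to join Sdha to Sdhb, read 179, 184 and 176 against 205, 220 and 211. It was higher by 0.24 (SE 0.04, adjusted p = 2.44e-04), with a gap between the groups wider than the spread within either. Sdhaf2, which inserts the flavin into Sdha, read 596, 571 and 605 against 547, 541 and 546 and was lower by 0.12 on the log2 scale (-0.12, SE 0.03, adjusted p = 0.00442). Sdhaf3, the dimmest gene of complex II, differed by 0.10 (adjusted p = 0.219). The number of lower genes in complex II was 2 in place of 1 without GFP replicate 2.

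Complex III had 2 genes higher and 3 lower of 8. That is 62.5% called, beside 36.3% of all genes tested and 58.9% of the bright genes. The catalytic subunits cytochrome b and cytochrome c1 do not carry these name stems, which leaves the Rieske iron-sulfur protein Uqcrfs1. It read 1009, 948 and 984 on the GFP control arrays and 918, 934 and 942 on the others, a difference of -0.07 whose adjusted p of 0.0429 lay close to the threshold. Leaving out any 1 array except GFP replicate 2 put it above 0.05. Uqcrc1, a large matrix-facing subunit, read 1836, 1708 and 1779 against 1628, 1596 and 1548. All 3 arrays labelled IRF2 lay below all 3 controls, with a difference of -0.16 (SE 0.03, adjusted p = 3.19e-04). Its structural partner Uqcrc2 differed by -0.04 (adjusted p = 0.279). A second Uqcrc2 probe set of like level gave -0.09 (SE 0.03) without overlap. The mean of the Uqcrc2 probe sets was called lower (limma adjusted p = 0.0332). The small subunits Uqcrb (log2 0.09, adjusted p = 0.00361) and Uqcr10 (0.10, 0.00282) were higher, and Uqcrq (-0.06, 0.0287) was lower. None of these calls held without the intensity trend, and those of Uqcr10 and Uqcrq were also lost in the mean of their probe sets. Without GFP replicate 1 or 3, or without any 1 array labelled IRF2, 1 gene of complex III was lower in place of 3.

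Complex IV had 4 genes higher and 2 lower of 17, which is 35.3% called beside 36.3% of all genes tested. Cox4i1, the common form of a subunit that takes part in the control of the enzyme by ATP, read 3772, 3748 and 3871 on the GFP control arrays and 3452, 3431 and 3369 on the arrays labelled IRF2. It was lower by 0.15 on the log2 scale (-0.15, SE 0.02, adjusted p = 1.95e-05), with no overlap, the largest called fall of a subunit in complex IV. Cox5a, its neighbour in the enzyme, was lower (log2 -0.09, adjusted p = 0.00161), and Cox5b differed by -0.0084 (0.773) on its brightest probe set. All 5 Cox5b probe sets above the filter lay below 0. The one that averaged 1900 on the GFP control arrays gave -0.08 (SE 0.02). Cox6c was higher (log2 0.08, adjusted p = 0.00726). Cox6a1 passed narrowly (log2 0.05, adjusted p = 0.0491) and did not pass with any 1 array left out other than IRF2 replicate 3. Ndufa4, named for complex I but a subunit of complex IV, differed by 0.03 (adjusted p = 0.374), and Cox7c, on a dim probe set, by -0.16 (0.0889). Cox7a2l, a factor that joins complexes III and IV into supercomplexes, read 948, 867 and 902 against 960, 998 and 976 and was higher by 0.11 (SE 0.03, adjusted p = 0.00902). That call was lost without IRF2 replicate 2 (adjusted p = 0.0525), which with Cox6a1 left 2 genes of complex IV higher in place of 4.

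The isoforms of complex IV replace a common subunit in certain tissues. Cox7a1, the heart and skeletal muscle form, read 16.7, 18.2 and 21.2 on the GFP control arrays and 31.5, 31.1 and 29.8 on the arrays labelled IRF2. The groups stood well apart on a dim probe set, and Cox7a1 was 1.65-fold higher (log2 0.73, SE 0.09, 95% interval 0.53 to 0.92, adjusted p = 1.47e-05). With 16 added to each intensity before log2 the difference was 0.43. A filter at the 60th percentile leaves Cox7a1 out of the test. Cox7a2, the common form, read 3734, 3609 and 3652 against 3600, 3632 and 3718, with overlapping groups and a difference of -0.0057 (95% interval -0.05 to 0.04, adjusted p = 0.863). The other muscle forms did not pass: Cox6a2 differed by 0.09 (adjusted p = 0.43) and Cox8b by -0.09 (0.536). Cox4i2, a form known from lung and low oxygen, differed by 0.05 (0.764), the testis form Cox8c by 0.07 (0.435), and Ndufa4l2, known to rise in low oxygen, by -0.10 (95% interval -0.27 to 0.06, adjusted p = 0.343). Of 8 muscle markers, Myh1, Myh2, Myh4, Myh6 and Myh7 lay under the filter and Ckm, Acta1 and Actc1 did not pass the test. The muscle markers summed to 112 to 118 in the GFP control group and 113 to 115 in the other. The brightest of the 8 averaged 39.8 on the GFP control arrays and 5 lay under the filter. Sums of such dim values cannot show whether muscle genes moved with Cox7a1.

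**Figure D2:**
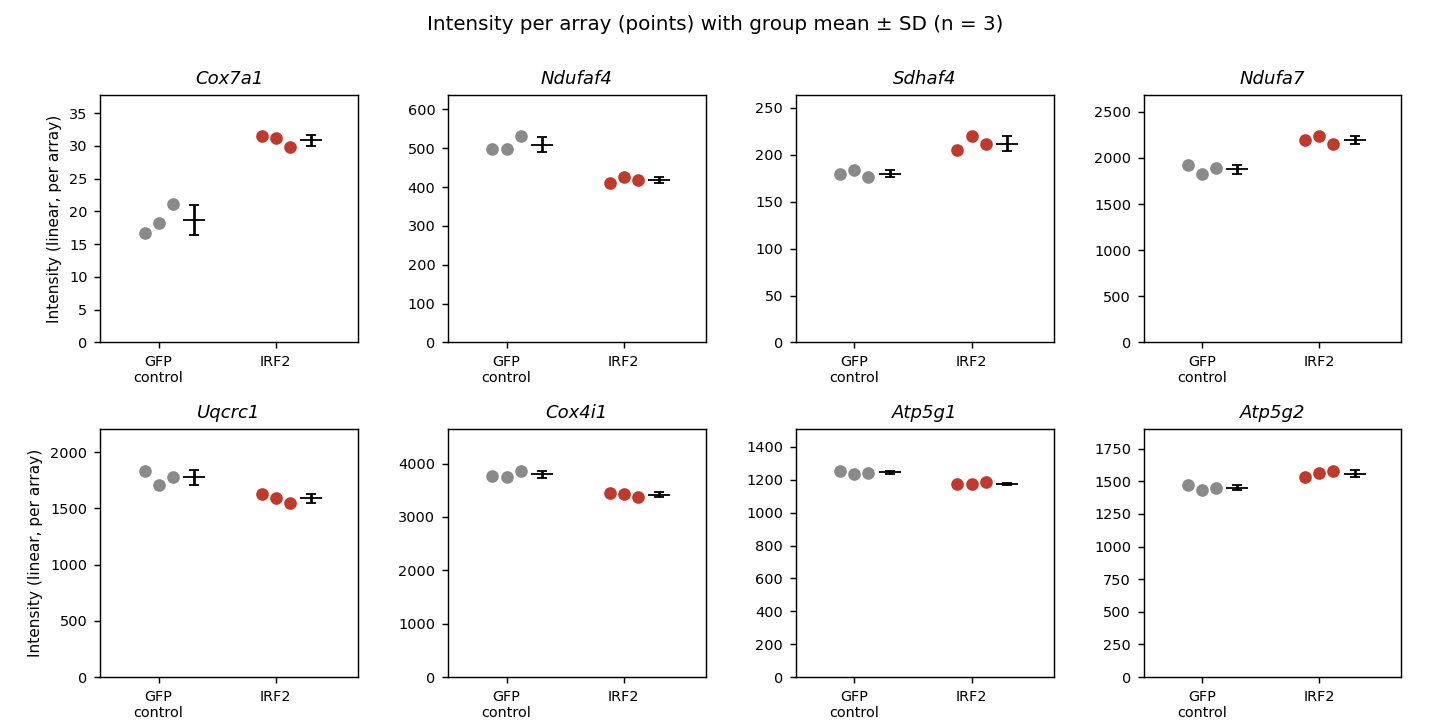
Linear intensity on each array (points, y axis from 0) for 8 genes, GFP control in grey and IRF2 in red, with the group mean and SD (n = 3) in black. The groups do not overlap in any of the 8 panels, and the gap is widest against the level for Cox7a1 (31.5, 31.1 and 29.8 against 16.7, 18.2 and 21.2).

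Complex V had 5 genes higher and 3 lower of 17, and all 17 lay within 1.1-fold. Of the 17, 47.1% were called, beside 36.3% of all genes tested and 58.9% of the bright genes. Atp5b, the beta subunit that makes ATP, read 5461, 5358 and 5432 on the GFP control arrays and 5476, 5440 and 5399 on the arrays labelled IRF2. The groups overlapped, and the 95% interval of the difference ran from -0.03 to 0.04 (adjusted p = 0.839). The alpha subunit Atp5a1 differed by -0.05 (adjusted p = 0.0802), gamma, Atp5c1, by 0.02 (0.58), and delta, Atp5d, by 0.07 (0.11). Epsilon, Atp5e, on the central stalk, was the 1 called gene among these 5. It read 1347, 1275 and 1312 against 1450, 1453 and 1403, higher by 0.13 (SE 0.03, adjusted p = 7.27e-04) with no overlap.

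Subunits e and g hold ATP synthase dimers together in the cristae. Subunit e, Atp5k, read 1611, 1610 and 1625 on the GFP control arrays and 1786, 1765 and 1758 on the others, higher by 0.13 (SE 0.02, adjusted p = 9.07e-05). Both groups were tight and far apart. Subunit g, Atp5l, was higher too (log2 0.09, adjusted p = 0.00252), as was Atp5mpl, a small proteolipid (0.05, 0.0457), whose call was lost with any 1 array left out. Subunit f, Atp5j2, was lower (log2 -0.11, SE 0.02, adjusted p = 1.51e-04), as was the stalk subunit d, Atp5h (-0.09, 0.00145). The stalk subunits Atp5pb (0.0033, 0.95) and Atp5o (-0.0075, 0.836) did not pass, nor did Atp5md, the dimmest gene of complex V (0.01, 0.694).

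The c ring that turns with the proton flow is built of a single mature protein encoded by 3 genes, whose products differ in the import sequence that is cut off. They did not move together. Atp5g1 read 1257, 1238 and 1243 on the GFP control arrays and 1172, 1175 and 1184 on the arrays labelled IRF2, lower with a log2 difference of -0.08 (SE 0.02, adjusted p = 0.0070). Atp5g2 read 1473, 1430 and 1451 against 1529, 1564 and 1582, higher by 0.10 (SE 0.02, adjusted p = 0.00182). In both, the groups did not overlap, and neither call held in the mean of the gene's probe sets, where Atp5g1 had an adjusted p of 0.179 and Atp5g2 of 0.859. The other probe sets in these means were very dim on the GFP control arrays, at 5.10 for Atp5g1 and 11.6 and 3.91 for Atp5g2. Atp5g3 read 5263, 5209 and 5212 against 5234, 5255 and 5073, with overlapping groups and a difference of -0.01 (95% interval -0.05 to 0.03, adjusted p = 0.69).

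The promoters of these genes are shown because the 3 genes encode one protein and their values went different ways. Each window runs 5′ to 3′ on the gene's strand over 300 bases, from 250 before to 50 after the RefSeq start, in GRCm38.p6. Capitals mark a searched motif, and a window in lower case holds none of the 5 searched. The windows are chr11:96075582-96075881 on the minus strand for Atp5g1, chr15:102670998-102671297 on the minus strand for Atp5g2 and chr2:73911277-73911576 on the minus strand for Atp5g3.
Atp5g1: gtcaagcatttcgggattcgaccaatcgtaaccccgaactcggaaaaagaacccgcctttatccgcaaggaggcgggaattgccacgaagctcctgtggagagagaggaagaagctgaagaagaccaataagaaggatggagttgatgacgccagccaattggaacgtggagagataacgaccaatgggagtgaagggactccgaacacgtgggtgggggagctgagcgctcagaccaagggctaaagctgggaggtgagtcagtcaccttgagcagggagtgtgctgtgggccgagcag
Atp5g2: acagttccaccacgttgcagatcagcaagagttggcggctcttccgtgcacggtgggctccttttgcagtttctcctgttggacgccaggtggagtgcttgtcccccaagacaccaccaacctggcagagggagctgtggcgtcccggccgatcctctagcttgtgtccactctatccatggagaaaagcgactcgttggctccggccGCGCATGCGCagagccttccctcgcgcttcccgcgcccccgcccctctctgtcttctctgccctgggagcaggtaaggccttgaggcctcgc
Atp5g3: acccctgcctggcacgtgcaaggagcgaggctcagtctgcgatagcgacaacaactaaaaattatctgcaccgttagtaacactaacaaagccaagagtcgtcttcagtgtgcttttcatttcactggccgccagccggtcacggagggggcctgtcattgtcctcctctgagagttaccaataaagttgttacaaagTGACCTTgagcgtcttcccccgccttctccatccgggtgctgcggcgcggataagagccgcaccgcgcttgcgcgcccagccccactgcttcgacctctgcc
The Atp5g2 window holds the NRF1 motif GCGCATGC on both strands as overlapping matches. The Atp5g3 window holds the estrogen-related receptor motif AAGGTCA on the reverse strand, and the Atp5g1 window holds none.

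The promoters of the gene with the largest fall and of the gene with the largest rise are shown for the same comparison. Ndufaf4 lies at chr4:24897833-24898132 on the plus strand and Cox7a1 at chr7:30183921-30184220 on the plus strand.
Ndufaf4: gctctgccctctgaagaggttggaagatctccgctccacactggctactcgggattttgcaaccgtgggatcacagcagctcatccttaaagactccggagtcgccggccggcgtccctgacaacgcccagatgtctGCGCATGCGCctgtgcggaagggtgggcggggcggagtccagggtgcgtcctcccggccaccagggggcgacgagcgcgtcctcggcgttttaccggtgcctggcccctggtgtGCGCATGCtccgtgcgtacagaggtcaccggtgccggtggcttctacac
Cox7a1: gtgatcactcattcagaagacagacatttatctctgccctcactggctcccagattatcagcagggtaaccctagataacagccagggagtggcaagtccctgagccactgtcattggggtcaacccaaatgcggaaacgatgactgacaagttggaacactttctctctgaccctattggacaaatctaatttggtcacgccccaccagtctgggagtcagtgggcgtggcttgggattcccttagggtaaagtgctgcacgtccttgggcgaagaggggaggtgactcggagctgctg
Ndufaf4 holds the NRF1 motif at a pair of places, the first of them read on both strands. Cox7a1 holds none of the 5 motifs.

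Over the gene set as a whole, RefSeq windows were matched for 78 of the 94 genes, with 83 windows, and for 27025 genes in all. The NRF1 motif GCGCATGC stood in the windows of 11 of the 78 genes (14.1%), against 3.05% of all genes. The ETS motif CCGGAAG, bound by GABPA, stood in 22 (28.2%, against 9.93%), the YY1 motif AAGATGG in 11 (14.1%, against 7.28%) and the estrogen-related receptor motif AAGGTCA in 8 (10.3%, against 5.38%). The interferon regulatory factor motif, GAAA repeated after a gap of 2 bases, stood in 2 (2.56%, against 3.99%). All were searched on both strands, and a match is a run of letters, not a shown binding site. The background takes in every gene with a window, more than the 18193 measured, and is not matched for expression or base content. Whether these shares differ was not tested. Of the genes with a window, 15 were higher, 13 lower and 47 not called. The NRF1 motif stood in 4, 2 and 5 of these, the ETS motif in 5, 4 and 13, YY1 in 2, 2 and 7, and the estrogen-related receptor motif in 3, 0 and 4. The genes with the interferon regulatory factor motif were Ndufa9 and Ndufs3, shown here because IRF2 binds motifs of this kind. The stretches are chr6:126849251-126849300 for Ndufa9 and chr2:90904896-90904945 for Ndufs3, both on the minus strand, with the motif, in capitals, on the strand opposite to the gene.
Ndufa9: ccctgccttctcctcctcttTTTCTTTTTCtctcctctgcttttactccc
Ndufs3: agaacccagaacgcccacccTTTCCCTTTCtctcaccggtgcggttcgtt
Neither gene passed the test. Ndufa9 read 857, 883 and 882 on the GFP control arrays and 872, 866 and 888 on the arrays labelled IRF2, with overlapping groups and a difference of 0.0022 (adjusted p = 0.961). Ndufs3 read 836, 822 and 844 against 811, 814 and 810, with a difference of -0.04 (95% interval -0.09 to 0.01, adjusted p = 0.222), although its groups did not overlap.

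**Figure D3:**
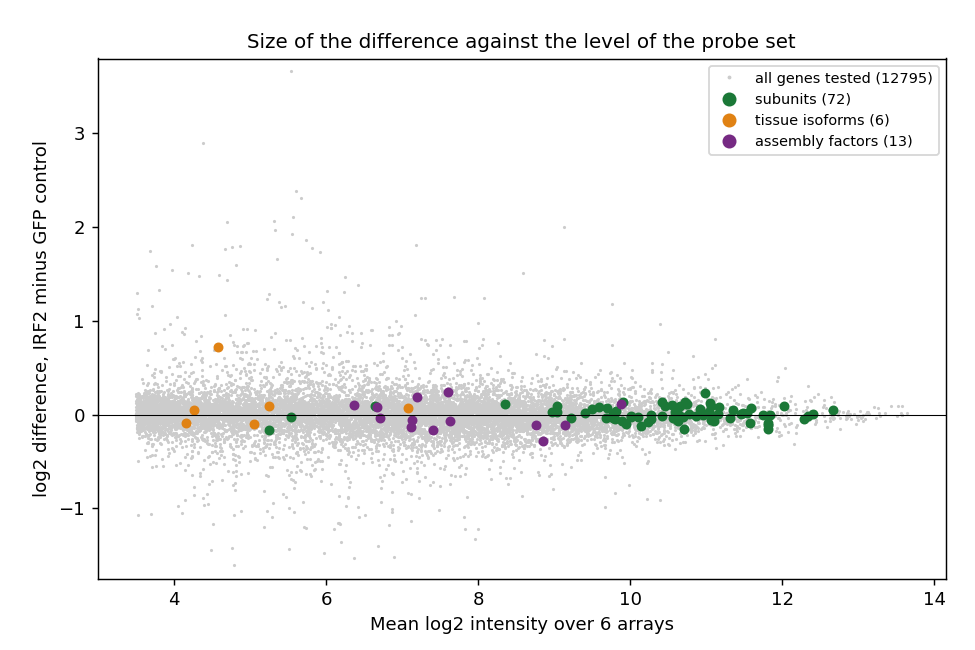
Log2 difference (IRF2 minus GFP control, y axis) against mean log2 intensity over the 6 arrays (x axis) for all 12795 genes tested in grey, with subunits in green, tissue isoforms in orange and assembly factors in purple. Most subunits sit to the right in a narrow band around 0, and Cox7a1 at 0.73 is the 1 isoform that stands off it.

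Genes around the respiratory chain were taken from lists of the pathway. Of the carriers and cytochrome c, 8 were tested, 5 were lower and 0 higher by limma (0 also at an unadjusted p under 0.05), with a median of -0.09. The background is 19.8% lower over all genes and 33.4% lower among the bright genes, to which all 8 belong. Slc25a4, which exchanges ADP for ATP across the inner membrane, read 4372, 4291 and 4307 on the GFP control arrays and 3629, 3803 and 3648 on the others, a difference of -0.23 (SE 0.02, adjusted p = 5.75e-07). Its paralog Slc25a5 was lower too (log2 -0.19, adjusted p = 6.86e-07), as were the outer-membrane channels Vdac3 (-0.14, 6.3e-05) and Vdac1 (-0.07, 0.0182) and Cycs, cytochrome c itself (-0.12, 2.64e-04). In all 5 (62.5% of the 8) the groups did not overlap, beside 46.2% of all genes tested and 66.4% of the bright genes.

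Assembly factors that do not share the name stems had 5 higher and 12 lower of 35, with a median of -0.07, which is 14.3% and 34.3% beside 16.5% and 19.8% of all genes tested. The copper chaperones of complex IV, Cox17 (log2 -0.29, adjusted p = 1.6e-06) and Cox19 (-0.29, 5.54e-06), were lower, the first of them not when its probe sets were averaged (adjusted p = 0.123). Coa3, which acts in the making of the mitochondrially encoded COX1, was lower (-0.17, 3.39e-05), and Cox20, which attends COX2, was higher (0.23, 1.04e-05). The 13 assembly factors of the name stems had a median of -0.06, with 3 higher and 5 lower (23.1% and 38.5%).

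Genes that feed electrons or carbon into the chain were taken as 2 lists. In the citric acid cycle and pyruvate list, 5 of 23 were higher and 9 lower, with a median of -0.07, beside 16.5% higher and 19.8% lower over all genes. Pdk1, a kinase that switches pyruvate dehydrogenase off, read 185, 195 and 184 on the GFP control arrays and 253, 248 and 288 on the arrays labelled IRF2. It was higher by 0.48 (SE 0.05, adjusted p = 2.3e-06), while its paralog Pdk3 was lower (log2 -0.31, adjusted p = 3.5e-05). Mdh2, malate dehydrogenase, and Idh3b, of isocitrate dehydrogenase, were lower (-0.20, 5.16e-06, and -0.17, 4.62e-05). In the list on ubiquinone and other electron entry, 1 of 16 was higher and 5 lower (6.25% and 31.25%). Its median was -0.09, and all genes tested had 16.5% higher and 19.8% lower. This list includes Coq9, of ubiquinone synthesis (-0.31, 2.97e-04), and Dhodh, which passes electrons from pyrimidine synthesis (-0.23, 0.00155).

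Regulators of mitochondrial biogenesis had 3 lower and 0 higher by limma of 19 tested (1 higher at an unadjusted p under 0.05), with a median of -0.02. The 3 lower are 15.8% of those tested, beside 19.8% lower and 36.3% called over all genes tested. Gabpb2, a partner of GABPA (-0.15, 0.00393), Myc (-0.14, 9.19e-04) and the PGC-1-related coactivator Pprc1 (-0.13, 0.0189) were the 3. Of mitochondrially encoded subunits only ND5 was measured with a single symbol, and it differed by -0.06 (adjusted p = 0.213).

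Mitochondrial ribosomal proteins, which translate the mitochondrially encoded subunits, served as a second nuclear-encoded mitochondrial group. Of 76 tested, 6 were higher and 39 lower, which is 59.2%, with a median of -0.09. All genes tested had 36.3% called and 19.8% lower, and the bright genes 58.9% called and 33.4% lower. The 76 had a median intensity of 562 on the GFP control arrays, under the cut of 960 for the bright genes. The bright genes are therefore not a background matched to their level. Mrpl12 (log2 -0.32) and Mrps22 (-0.31) were the largest falls of the large and small subunit. Beside this, the 91 oxidative phosphorylation genes had 20 higher, 16 lower and a median of 0.0022. A test of the difference between these lists was not run.

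The same was seen array by array, as the median deviation of a group's genes from their mean over the 6 arrays. For the 91 oxidative phosphorylation genes this was 0.015, -0.019 and 0.0011 on the GFP control arrays and -0.0039, 0.0092 and -0.0072 on the arrays labelled IRF2. The groups overlapped, and GFP replicate 2 was the lowest of the 6. For the mitochondrial ribosomal proteins it was 0.062, 0.020 and 0.045 against -0.050, -0.027 and -0.051, with no overlap. For the carriers and cytochrome c it was 0.056, 0.057 and 0.055 against -0.049, -0.034 and -0.041, again apart. In the assembly factors of the name stems the deviations were 0.064, -0.017 and 0.035 against -0.051, -0.0056 and -0.012, so that GFP replicate 2 lay among the arrays labelled IRF2.

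**Figure D4:**
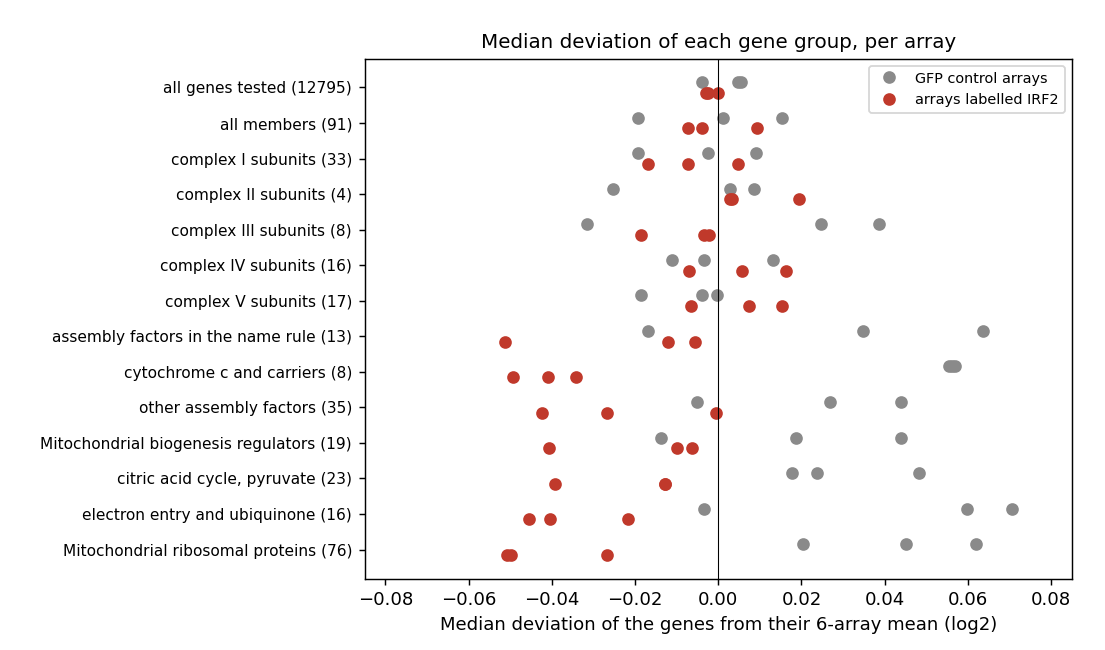
Median log2 deviation of the genes of each group from their 6-array mean (x axis), for each GFP control array (grey) and each array labelled IRF2 (red), with the number of genes in brackets. The 91 oxidative phosphorylation genes and each complex overlap around 0, while the mitochondrial ribosomal proteins, the carriers, the citric acid cycle list and the electron entry list separate the groups.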

How the data were processed

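The authors deposited 1 linear intensity per probe set and array, and the submitters' processing notes list MAS5 without saying what it was used for. The deposited intensities run from 2.59 to 14181 over 45101 probe sets, and no further scaling was applied. Probe sets were named from the platform annotation: 34945 had 1 symbol, 932 several and 9160 none, and 10 with several symbols that touch the gene set were left out. The log2 of each intensity entered limma 3.58.1 (lmFit, then eBayes with an intensity trend, R 4.3.3), with group as the only term, which leaves 4 residual degrees of freedom. All tests are two-sided, and p-values were adjusted by Benjamini-Hochberg over the 12795 genes above the 40th percentile of mean intensity (11.3), at a threshold of 0.05. No depth applies, and the 3 arrays a group limit the precision.

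The genes named are drawn from the 8 largest called rises and 8 largest called falls without overlap, isoform families and core subunits. They also come from the brightest and dimmest gene of each complex, genes whose probe sets disagree in sign, and up to 4 genes of each pathway list with the smallest p. Ndufa1, Ndufa10, Ndufb3, Ndufc1, Cox5a, Cox5b, Cox6c, Cox7c, the further subunits of complexes III and V, Ndufa9 and Vdac1 were added after their values were seen. The genes, lists and motifs were chosen with earlier results of these data known. Promoter windows are RefSeq's, in GRCm38.p6, matched by Entrez gene ID. The 16 alternatives changed the offset, scaling, filter, probe set rule, variance model, replicate block or the arrays used.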

Additional observations from a re-analysis of the deposited data

How the results depend on the processing

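The count of oxidative phosphorylation genes called moved by over 1.5 times under 1 of 16 alternatives: without the intensity trend, 11 were higher and 8 lower in place of 20 and 16, with 4 lower in complex I, 0 and 1 in complex III, 1 and 1 in complex IV and 3 and 1 in complex V. In the mean of probe sets complexes II and III each had 1 gene higher, and under quantile normalization complex II had 2 lower. Leaving out each array in turn gave 16 to 21 higher and 11 to 18 lower, and the median log2 difference of the members tested ran from -0.0095 to 0.0082. Same-numbered arrays did not deviate together (correlations of 0.072, -0.076 and -0.00077), and differently numbered ones ran from -0.11 to 0.11. With 3 arrays a group this cannot settle whether the numbers pair the arrays. A fit with the replicate block called 20 genes higher and 16 lower, with 34 of the 36 calls kept and 36.6% of all genes called. Of 1276 values of 80 named genes under the alternatives, 1200 kept direction and side of the threshold, 44 lost the call, 12 gained one and 20 changed sign. Those that changed sign lay near 0 and were not called on either side. In the mean of probe sets these were Cox8a -0.031, Ndufv1 0.00036, Ndufab1 0.021, Ndufb11 0.012, Ndufs4 -0.014 and Atp5pb -0.0021, and under quantile normalization Cox6b1 -0.011 and Atp5b -0.00099. With 1 array left out the range crossed 0 for Cox4i2 (-0.061 to 0.12), Cox6b1 (-0.0014 to 0.011), Cox7a2 (-0.019 to 0.0079), Cox8b (-0.15 to 0.011), Atp5g3 (-0.021 to 0.0046), Sdhd (-0.031 to 0.0082), Atp5b (-0.0022 to 0.011), Ndufb11 (-0.029 to 0.0095) and Atp5pb (-0.030 to 0.040). The cause was not tested. The mean of probe sets takes in dim probe sets, and a stricter filter at the 60th percentile removes Cox7a1. Dim probe sets have wide errors, which limits the tissue isoforms.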

Other observations

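In 12 of the genes, probe sets above the filter differed in sign. Most such pairs set a bright probe set against a dim one with a wide error. Atp5j2 gave -0.11 (SE 0.02) and -0.14 (SE 0.02) on probe sets that averaged 3731 and 2830 on the GFP control arrays, and 0.05 (SE 0.07) on another at 38.1. Ndufab1, the mitochondrial acyl carrier protein that is also a complex I subunit, gave -0.03 (SE 0.02) at 1682, -0.18 (SE 0.05) at 197 and 0.08 (SE 0.13) at 16.4. Both probe sets of Ndufv2 at 1601 and 944 gave differences below 0 (-0.06 and -0.08), and the one at 730 gave 0.03 (SE 0.03). The remaining genes were Atp5pb, Cox8a, Ndufa12, Ndufa3, Ndufb11, Ndufb8, Ndufs4, Ndufv1 and Sdha. Which transcript forms these probe sets read was not analysed here.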
